A study of Mus musculus with 2 samples.

Results

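The genes described here encode 5 proteins of the endocytic uptake machinery of visceral endoderm: Lrp2, Cubn, Amn, Dab2 and Folr1. They were found by gene name among the 34650 gene names on a mouse expression array, of which 25851 had at least 1 probe well above background on at least 1 array. The 5 genes carried 10 probes of 60 bases, printed as 1 spot each, and every probe is accounted for below. The study asked how epiblast stem cells obtained from mouse embryonic stem (ES) cells by way of aggregates compare with those obtained directly. Both groups came from E14Tg2A, an ES cell line of strain 129/Ola, and both received Activin A at 20 ng/mL and FGF2 at 12 ng/mL in a defined medium with N2 and B27 lacking vitamin A. In EpiSC the factors were given to ES cells, and in ELA-EpiSC they were given to Epiblast-Like Aggregates (ELA), the clusters that ES cells form in suspension. Each group was 1 array of RNA pooled from 3 experiments on 1 cell line, so no difference below has a replicate check and no p-value can be given. The groups follow the sample titles, although for EpiSC the source name speaks of an Argonaute immunoprecipitate.

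Visceral endoderm is the epithelium that covers the epiblast of the early embryo and takes up maternal proteins, lipids and vitamins through its apical face. Lrp2, or megalin, is a giant receptor of the low-density lipoprotein (LDL) receptor family that carries many ligands into clathrin-coated pits. Cubilin, from Cubn, is a peripheral membrane protein that reaches the surface only with amnionless, the product of Amn, which gives the pair its membrane anchor and its internalisation signals. Dab2 is an intracellular adaptor that links the tails of megalin and amnionless to clathrin, and Folr1 is the lipid-anchored folate receptor alpha. The same proteins work in the kidney proximal tubule, and Lrp2 and Folr1 are also made by neuroepithelium, so none of them marks visceral endoderm alone.

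The Amn probe is printed whole, because in 1 reading frame it encodes an amnionless stretch of the form F-any-N-P-any-F, the class of internalisation signal that adaptors such as Dab2 bind. The 18 bases that encode it are in capitals (bases 2 to 19, reading frame 2).
Amn, A_51_P343350: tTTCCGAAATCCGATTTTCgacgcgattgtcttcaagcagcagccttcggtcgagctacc
Of the 55681 transcript probes on the array, 10 (0.0180%) encode this form in a frame free of stops, and the Amn probe was the only one among the 10 probes of the 5 genes. Its alignment in the files, chr12:112514095-112514243 on the plus strand of mm9, spans 149 bases for 60 probe bases, so the probe crosses a splice junction. For the other 6 probes that rose above background a stretch of 30 bases is shown, to identify which piece of each transcript was measured. Capitals mark AATAAA, the letters of the common polyadenylation signal, which 3 of the 10 probes hold and 10.1% of all probes hold.
Lrp2, A_52_P285470: atattgcacgtgtgttaacgaatgaatgga
Lrp2, A_55_P2099677: actataaattccAATAAAtgatgactgcat
Cubn, A_55_P2047639: atacaaaagtcaaagtacgggtAATAAAca
Dab2, A_55_P1977473: ttgtgcacttttctgtatgcaaacaaatct
Folr1, A_55_P1977792: gacagcctctttAATAAAccagacattcca
Folr1, A_52_P584335: ggttgtattttacccagtaggagtggaaga
In mm9 these 6 probes lie at chr2:69262566-69262625, chr2:69344263-69344322, chr2:13197978-13198037, chr15:6390616-6390675, chr7:109006846-109006905 and chr7:109016972-109017031, in the order shown. The Dab2 probe is on the plus strand and the other 5 are on the minus strand. Exon and UTR positions were not analysed here. The sequences are those of the array files.

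Of the 5 genes, Lrp2 and Folr1 were higher in ELA-EpiSC by more than 1 on the log2 scale, Amn was lower by more than 2.5, and Cubn and Dab2 differed by less than 1. Values are log2 normalized signal, differences are ELA-EpiSC minus EpiSC, and a gene takes its brightest probe. Across the 16649 genes with a mean log2 signal of at least 7.5, which all 5 genes passed, 4.54% were higher in ELA-EpiSC by over 1 and 4.46% were higher in EpiSC by over 1. Amn, at 7.25 in ELA-EpiSC, passed this minimum through its EpiSC level. Those genes had a median difference of 0.00, an SD of 0.65 and a central 95% range of -1.32 to 1.37. The 5 genes had a median difference of 0.20 and spanned 4.73. The members thus lay both at the upper and at the lower end of the distribution, with 3 of 5 outside the central 95% range and 2 of 5 below the median absolute difference of 0.28. The only measure of error is technical: over 298 probes printed 10 times, the SD of the difference over replicate spots was 0.10 (root mean square), which covers neither labelling nor culture.

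**Figure D1:**
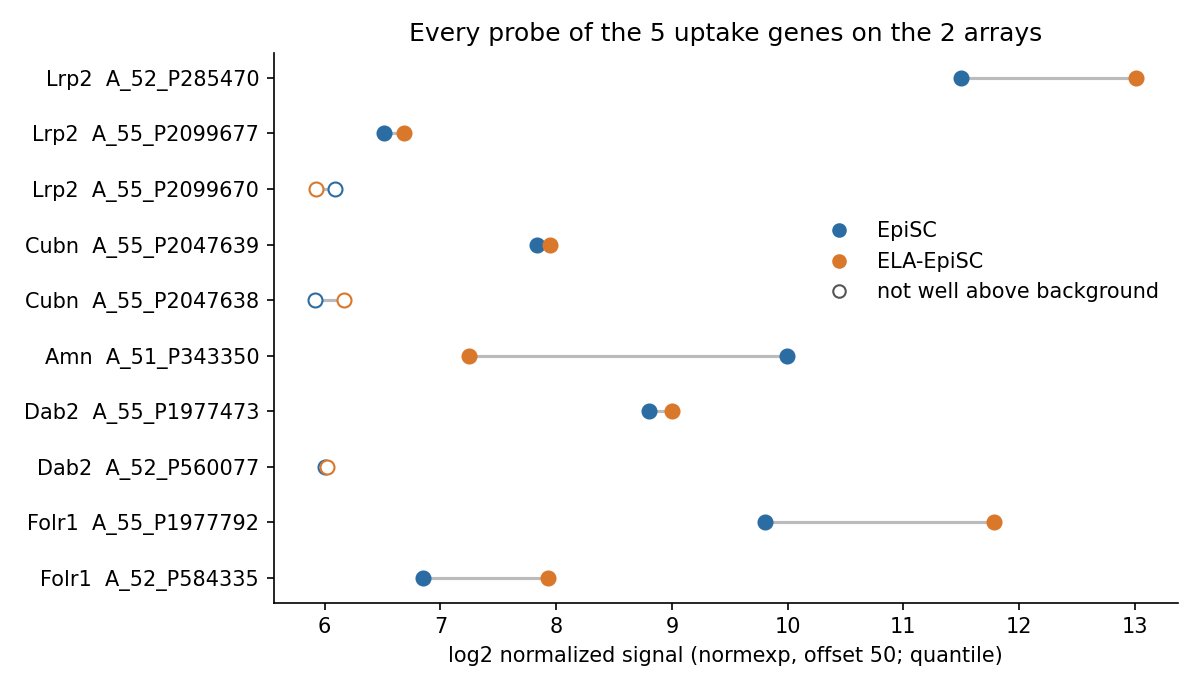
Log2 normalized signal of the 10 probes of the 5 uptake genes (rows) in EpiSC (blue) and ELA-EpiSC (orange), 1 spot per point; open points were not well above background. The grey lines are long for the first Lrp2 probe, the Amn probe and both Folr1 probes, and Amn is the gene whose blue point lies far to the right of the orange one.

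Megalin mRNA was higher in ELA-EpiSC by its 1 bright probe. Lrp2 probe A_52_P285470 had a mean spot signal of 2585 in EpiSC and 8951 in ELA-EpiSC, over a local background of 23 and 19 intensity units. After normalization EpiSC stood at 11.50 and ELA-EpiSC at 13.01, a difference of 1.51 or 2.86-fold, which was 15.1 times the replicate-spot SD at that level. Among the 16649 genes, 325 had a larger difference towards ELA-EpiSC. The other 2 Lrp2 probes lie upstream and were assigned by the files to other transcripts. A_55_P2099677, 81.7 kb upstream of the first, was dim and differed by 0.17, from 6.52 in EpiSC to 6.69 in ELA-EpiSC. A_55_P2099670, 102.7 kb upstream, did not rise above background in either group. The higher Lrp2 signal in ELA-EpiSC thus rests on 1 probe, and the mean of the detected probes differed by 0.84.

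Folr1 had 2 probes, both were detected on both arrays, and both were higher in ELA-EpiSC by over 1. Probe A_55_P1977792 had a spot signal of 775 in EpiSC and 3873 in ELA-EpiSC, or 9.80 and 11.78 on the log2 scale, a difference of 1.98 or 3.93-fold. That was 20.4 times the replicate-spot SD, and 155 of the 16649 genes had a larger difference in this direction. Probe A_52_P584335, 10.1 kb upstream and assigned to another transcript variant, had a spot signal of 77.3 in EpiSC and 231 in ELA-EpiSC. Its normalized signal differed by 1.09 or 2.12-fold, from 6.85 in EpiSC to 7.93 in ELA-EpiSC. The offset added before taking logs compresses differences of dim probes such as this one, and without it the difference was 1.58. Both probes name the same gene on the same array and are not replicates of the condition.

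Amn went the other way. Its single probe had a spot signal of 889 in EpiSC and 128 in ELA-EpiSC, against a local background of 26 and 25. The normalized signal differed by -2.75, from 10.00 in EpiSC to 7.25 in ELA-EpiSC, so EpiSC was 6.73-fold higher. The difference was 26.4 times the replicate-spot SD, and 83 genes (0.499%) lay further towards EpiSC. The probe was still well above background in ELA-EpiSC, so the value is a measurement on both arrays and not a bound. The offset compresses this difference too, and without it the difference was -3.25. Of the 5 genes Amn alone was higher in EpiSC.

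Cubn, whose protein depends on amnionless, did not share this difference on these arrays. Probe A_55_P2047639 had a spot signal of 180 in EpiSC and 231 in ELA-EpiSC, or 7.84 and 7.94 on the log2 scale. The difference of 0.11 was 0.947 times the replicate-spot SD, and 21.4% of genes differed by less. The other Cubn probe, A_55_P2047638, lies 7.63 kb upstream and stayed at background in both groups. The partners of 1 receptor complex, Cubn and Amn, therefore differed from each other in their ELA-EpiSC minus EpiSC values by more than the replicate-spot SD, but whether this would hold in other cultures was not tested.

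The adaptor Dab2 was close to level between the arrays. Probe A_55_P1977473 had a spot signal of 374 in EpiSC and 535 in ELA-EpiSC, and a normalized signal of 8.80 and 9.00. The difference of 0.20 was 1.92 times the replicate-spot SD, and 38.6% of genes differed by less. Probe A_52_P560077, which the files assign to another transcript 103.6 kb upstream, stayed at background in both groups. In all, 7 of the 10 probes were detected on both arrays, 3 on neither and 0 on 1 array only. In each of the 4 genes with more than 1 probe the probe used was the one nearest the 3′ end, which was so for 51.3% of the 9822 genes with several probes on 1 strand.

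**Figure D2:**
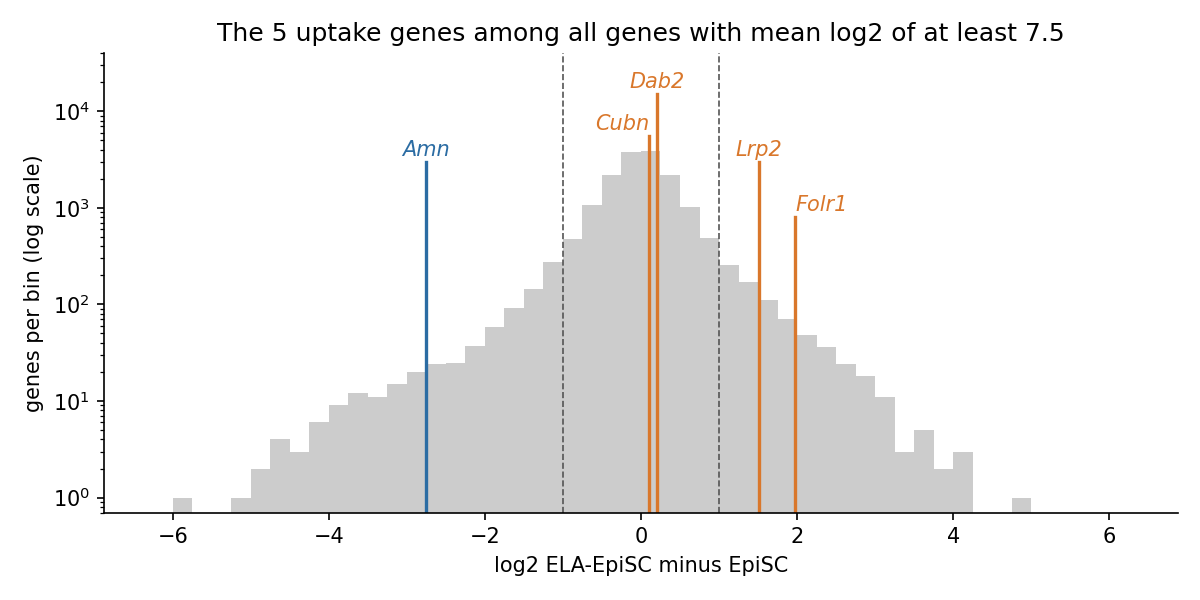
Histogram of log2 ELA-EpiSC minus EpiSC for the 16649 genes with a mean log2 signal of at least 7.5 (grey, log-scaled counts per bin), with the 5 uptake genes as vertical lines, orange where higher in ELA-EpiSC and blue where higher in EpiSC; dashed lines mark -1 and 1. Cubn (0.11) and Dab2 (0.20) stand in the centre, Lrp2 (1.51) and Folr1 (1.98) on the right and Amn (-2.75) on the left; line heights carry no value.

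Markers of visceral endoderm itself were mostly lower in ELA-EpiSC, as Amn was, whereas Lrp2 and Folr1 were higher. Of 28 listed markers 27 were detected, and of the 17 with a mean of at least 7.5, 9 were higher in EpiSC by over 1, 1 was higher in ELA-EpiSC by over 1 and the median difference was -1.34. Ttr and Apoc2, below 7.5 in ELA-EpiSC, entered the 17 through their EpiSC level, and with detection required on both arrays the median was -1.13. Under spike-in scaling the median was -0.81. The mean log2 signal over these 17 was 12.71 in EpiSC and 11.13 in ELA-EpiSC. Hnf4a, a transcription factor of visceral endoderm and liver, differed by -5.12, Gata4 by -2.39 and the retinol carrier gene Rbp4 by -3.23. Ttr, encoding the thyroid hormone carrier transthyretin, was detected on the EpiSC array only and was at least 10.7-fold higher there. Likewise detected there only, Apoa1, the apolipoprotein of high-density lipoprotein, was at least 4.02-fold higher. Among the 17, only Fst, encoding the activin-binding protein follistatin, was higher in ELA-EpiSC, at 2.40. Gata6 at -0.57, Sox17 at -0.93, Foxa1 at -0.86 and Foxa2 at -0.44 differed by less than 1. Among detected markers with a mean below 7.5, Sox7 at 0.73, Apob at 0.55 and Afp at 0.21 were higher in ELA-EpiSC. The others below that mean, Apoa1 among them, were lower. Among secreted markers, Spink3, encoding a trypsin inhibitor, was bright, at 17.10 in EpiSC and 13.46 in ELA-EpiSC. Afp, alpha-fetoprotein, was at 6.26 in EpiSC and 6.47 in ELA-EpiSC, near the lowest detected signals of 5.89 and 6.11, and Alb stayed at background in both. The part of this list in the Amn value was not tested, and in bulk RNA fewer cells of a type and less RNA per cell cannot be told apart.

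Marker lists of other cell types that such cultures could hold had medians nearer 0. Anterior visceral endoderm markers had a median of 0.01 over 7 genes, or -0.25 under 75th percentile scaling, with Hhex at -1.73 as the 1 gene past the threshold. For parietal endoderm, 2 of 12 genes were higher in ELA-EpiSC by over 1 and 3 in EpiSC, with a median of -0.26 that became 0.28 under spike-in scaling. For definitive endoderm 1 of 8 genes was past the threshold, towards EpiSC, with a median of -0.30 that became 0.23 under spike-in scaling. For trophoblast 1 of 7 genes was higher in ELA-EpiSC and 3 in EpiSC, with a median of -0.56. For anterior neuroepithelium, another source of Lrp2 and Folr1, 1 of 5 genes was higher in ELA-EpiSC, Nes at 2.11, and 2 in EpiSC, Rax at -5.96 and Hesx1 at -4.38, with a median of -0.29 that became 0.24 under spike-in scaling. The mean log2 signal over these 5 was 10.78 in EpiSC and 9.06 in ELA-EpiSC, and the part of this list in the Lrp2 and Folr1 values was not tested. Srgn (parietal endoderm), Elf5 and Hand1 (trophoblast) and Rax were below 7.5 in ELA-EpiSC and entered the counts through their EpiSC level. Hand1, at -0.56 (0.22 by its other probe), set the trophoblast median. That median was -0.40 with the mean of detected probes and -0.03 under spike-in scaling. Of 12 epiblast stem cell genes 1 was past the threshold, Fgf8 at 1.31 (0.45 by the lowest of its 3 probes), and the median was 0.08, or -0.23 with the processed signal of the scanner software. Pou5f1, the pluripotency factor Oct4, was at 14.27 in EpiSC and 14.46 in ELA-EpiSC.

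Genes of the same uptake route, taken by their brightest probe after quantile normalization, differed by less than 1, with 1 exception, Gulp1. In the LDL receptor family, to which Lrp2 belongs, 0 of 12 genes passed 1 in either direction and the median was 0.16. The very-low-density lipoprotein receptor gene Vldlr was at 0.97 (1.22 by its other probe) and Lrp1 at 0.73 (-0.05 by its other probe), and Lrp1b stayed at background in both groups. Among other endocytic and scavenger receptors 0 of 12 passed 1, with a median of 0.01. Of 28 genes of the clathrin coat and its adaptors 1 passed 1: Gulp1, an adaptor with the same kind of phosphotyrosine-binding domain as Dab2, at -1.42. The median of that list was 0.16, or -0.01 under 75th percentile scaling. Dab1, a further adaptor of this kind, was at -0.59, with its 4 detected probes between -0.88 and 0.33. Lrpap1, the chaperone of LDL receptor family members, was at 0.35. Among 23 endosome and lysosome genes 0 passed 1, with a median of 0.05, or -0.07 under 75th percentile scaling. Spike-in scaling raised every difference by 0.54, so that some of these genes, such as Vldlr, passed 1. The list medians, in the order given, became 0.70, 0.55, 0.70 and 0.58.

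Ligands of megalin and cubilin were divided. Of 13 genes with a mean of at least 7.5, 4 were higher in ELA-EpiSC by over 1 and 4 in EpiSC, with a median of -0.35 that became 0.18 under spike-in scaling. Those higher in ELA-EpiSC included Clu, encoding clusterin, by 2.46, Bmp4 by 1.77 and Ctgf by 1.62. Lower in ELA-EpiSC were Ambp at -4.53, Rbp4 at -3.23 and Gpc3 at -1.96, besides Ttr. Ambp and Ttr, below 7.5 in ELA-EpiSC, entered the 13 through their EpiSC level. With detection required on both arrays the median was -0.33. Ttr and Rbp4 also stand in the visceral endoderm list. Gif, encoding intrinsic factor, through which cubilin takes up cobalamin, stayed at background in both groups.

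Past the threshold, folate genes other than Folr1 were higher in ELA-EpiSC, and 0 were lower by over 1. Of 21 genes, 3 were higher in ELA-EpiSC by over 1 and the median was 0.10. Over all 16649 genes the shares past 1 were 4.54% towards ELA-EpiSC and 4.46% towards EpiSC. The 3 folate genes were Aldh1l2 at 1.73, Mthfd2 at 1.67 and Shmt2 at 1.10, which encode mitochondrial folate enzymes. Mthfd2l and Mthfd1l, which do so too, were at -0.82 and 0.24. Aldh1l2, at 7.14 in EpiSC, entered the 21 through its ELA-EpiSC level of 8.87. The other routes of folate entry differed by less than 1, with the reduced folate carrier Slc19a1 at 0.60 (-0.46 by its other probe), the proton-coupled carrier Slc46a1 at 0.10 and the receptor Folr2, below the mean of 7.5, at 0.89. Of 10 cobalamin genes 0 passed 1, with a median of 0.20; the transport protein gene Tcn2 was at -0.79.

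Other genes of the apical absorptive surface shared by visceral endoderm and proximal tubule were lower in ELA-EpiSC more often than higher. Of 12 genes, 6 were higher in EpiSC by over 1 and 1 in ELA-EpiSC, with a median of -0.94. Tmem27 and Pdzk1, below 7.5 in ELA-EpiSC, entered the 12 through their EpiSC level, and with detection required on both arrays the median was -0.77. Under spike-in scaling the median was -0.41. Vil1, encoding the microvillar protein villin, was at -2.91, the zinc transporter gene Slc39a4 at -2.01 and the scaffold gene Pdzk1 at -1.48 (-0.47 by its other probe). Tmem27 and Dpp4 were detected on the EpiSC array only, at least 8.44-fold and at least 2.75-fold higher there. The peptidase gene Mme, at 1.67, was the only one of the 12 higher in ELA-EpiSC by over 1. Anpep at 0.41 and Ezr at 0.17 were higher there by less. Among detected genes with a mean below 7.5, to which Dpp4 belongs, Ggt1 was higher in ELA-EpiSC, at 0.90, and the others were lower.

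**Figure D3:**
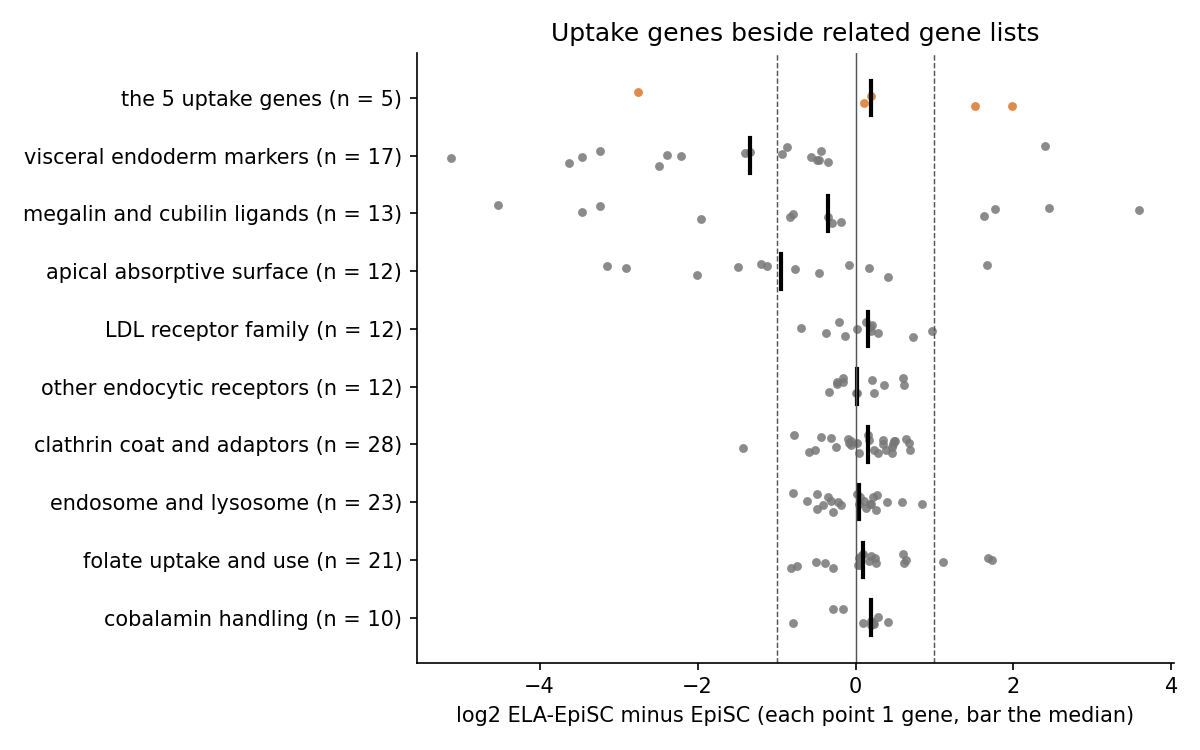
Log2 ELA-EpiSC minus EpiSC for the 5 uptake genes (orange) and for the genes of 9 related lists with a mean log2 signal of at least 7.5 (grey), each point 1 gene, n the number of points and black bars the medians; dashed lines mark -1 and 1. The visceral endoderm (median -1.34) and apical surface (median -0.94) lists lie to the left, and the receptor, clathrin and endosome lists stay almost wholly between the dashed lines. Ttr and Tmem27 are plotted at their measured values although detected in EpiSC only.

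Which genes looked most like each member was measured as the distance between pairs of log2 signals over the 2 arrays, which is a description of 2 points. Nearest to Lrp2 were Pdlim2 (difference 1.49), Cyfip2 (1.62) and Nrcam (1.64). Those nearest to Folr1 included Efemp1 (1.94) and Isg20 (2.08). Nearest to Amn were Shisa9 (-2.58), Ephb1 (-2.99) and Proc (-2.81). For Cubn these were Gca, Ramp1 and Dcp2, and for Dab2 they were Zfp84, Erc2 and Pik3c2a, at distances of at most 0.038.

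The RefSeq promoter table of GRCm38.p6, 250 bases before to 50 after each start, held 5 promoters of 4 of the genes, and Folr1 was the gene without an entry. Letters of sites for visceral endoderm regulators were searched on both strands. AGATAA and TGATAA, forms of the GATA site, were found in 1 of the 5, the same Dab2 promoter, and in 11.2% and 9.05% of all 32851 promoters. GTTAAT, part of the HNF1 site, was found in the other Dab2 promoter and in 7.10% of all. CAAAGTCCA, a form of the HNF4A site, was found in 0 of the 5 and in 0.475% of all. The Amn promoter held none of these letters in this window.

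The differences kept their direction under all 14 alternatives of processing for each of the 5 genes. Not every alternative could change them. The changed detection filters left all 5 values as they were, as did the mean of detected probes for Amn, Cubn and Dab2. Spike-in scaling, a constant upward shift, could have turned only Amn. Amn ranged from -3.57 with the processed signal of the scanner software to -2.21 with spike-in scaling, past 1 in 14 of 14. Folr1 ranged from 1.53, as the mean of its probes, to 2.51 with spike-in scaling, past 1 in 14 of 14. Lrp2 ranged from 0.84, as the mean of its detected probes, to 2.05 with spike-in scaling, past 1 in 13 of 14. Cubn ranged from 0.01 to 0.64 and Dab2 from 0.13 to 0.74, with 0 past 1. Spike-in scaling moved all values because the 8 detected spike-in RNAs were on average 0.54 lower on the ELA-EpiSC array after normalization. Setting them level raised the median of all genes by 0.54 and changed the background to 14.9% of genes higher in ELA-EpiSC by over 1 and 1.84% higher in EpiSC.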

How the data were processed

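The authors hybridized 1 one-colour Agilent SurePrint G3 mouse array per group with Cy3-labelled cRNA from 50 ng of pooled RNA. Both arrays were on 1 slide and in 1 scan. The deposited files of each array give linear spot intensity, extracted per the file headers with Feature Extraction 10.7.3.1 (9.1 in the submitters' processing notes), with probe coordinates of mm9. A second deposited table gives log2 values that the authors corrected for background and quantile normalized in limma, and it served as an alternative.

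Here the mean spot signal was corrected by normexp (offset 50) and quantile normalized in limma 3.58.1 (R 4.3.3). Control and outlier-flagged spots were left out and spots of 1 probe averaged. The offset shrinks differences between dim values, and quantile normalization hides a shift common to all genes. Detection of a probe needed 0.5 or more of its spots well above background, which held for 36644 probes (65.8%) in EpiSC and 36206 (65.0%) in ELA-EpiSC, with 0 saturated spots. A gene took its brightest detected probe. A gene detected on 1 array only was set against the higher of its own dim value and that array's lowest detected signal, as a bound. Thresholds of 1 and 2.5 and the mean minimum of 7.5 follow the study's methods. The number of arrays limits the precision, and no test was possible. The normalization was run on a simulated pair of arrays in which few probes changed, balanced in direction. The simulation held no shift common to all genes, so it does not cover the spike-in offset seen here. The named genes are all 5 members with every probe, list members past 1 or detected on 1 array, other list members given as values, and the 3 nearest genes per member. The members, the 15 lists and the alternatives were chosen with earlier results of these data known. All 5 symbols matched the RefSeq gene table of GRCm38.p6. A few genes that the rule would name are not reported here.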

Additional observations from a re-analysis of the deposited data

How the results depend on the processing

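With 1 array per group, no replicate could be left out and every value describes these 2 pools only. No paired analysis was possible because there was a single array for EpiSC and for ELA-EpiSC. Over 14 alternatives of values and filters, 3 of the 5 genes stayed past 1, except with the mean of detected probes, where 2 did. At 2 other thresholds, 3 genes passed 1.5-fold and 1 passed 2.5. The median over the 5 genes was 0.40 under median scaling and 0.74 under spike-in scaling, against 0.20; these scalings raised the median of all genes by 0.15 and 0.54. Quantities whose sign turned were the dim Lrp2 probe A_55_P2099677 (-0.079 under 75th percentile scaling), the clathrin list (-0.013 under 75th percentile scaling) and, under spike-in scaling, the medians of anterior neuroepithelium (0.24), definitive endoderm (0.23), the ligands (0.18) and parietal endoderm (0.28). Single genes between -0.54 and 0 likewise turn positive under spike-in scaling, and single genes a little under 1 pass 1. Medians near 0 also changed sign: anterior visceral endoderm was -0.25 under 75th percentile scaling. The second Folr1 probe was 0.93 under 75th percentile scaling. For dim probes the low signal over background limits the difference. Amn ran from -2.21 with spike-in scaling to -3.57 with the processed signal of the scanner software.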
